A study of Arabidopsis thaliana with 5 samples.

Results

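Cytochrome P450 genes are described here by family and by array in unopened buds of *ask1* and of L*er* plants. The members are all genes with a single-gene probe set whose symbol is CYP followed by a family number of 2 or 3 digits and a letter, which leaves out cyclophilins and cyclins. The probe sets of the array gave 23 such genes among 13356 genes with a name here, and each had 1 probe set. RefSeq (TAIR10.1) lists 236 genes with a P450 symbol of this form, and those without a probe set named for them alone are not analysed here. The annotation used gives no gene name to 8730 of the 22746 probe sets, and further P450 genes can be among these. The 23 genes are thus the P450 genes named here, and their make-up and signals do not describe the whole family. Of the 23 genes, 19 belong to family 71, all of them in subfamily CYP71B, and families 51, 78, 79 and 84 have 1 gene each.

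The tested plants were *ask1*-/- mutants in the L*er* background (3 arrays), and their reference was wild-type L*er* (2 arrays). They were grown in soil for about 5 to 6 weeks, and total RNA of unopened flower buds was hybridized to Affymetrix ATH1 arrays. *ask1* plants were picked by phenotype from the progeny of heterozygous plants, with sterile anthers and fewer or smaller petals among the signs. A bud cluster ran from the inflorescence meristem to the largest unopened bud, so each array holds many cell types and stages, and fewer cells of a type and less RNA per cell cannot be told apart. The values are RMA log2 signals, in which a difference of 1 is 2-fold. The labels call the arrays biological replicates, and the values of each genotype are given in replicate order.

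Cytochrome P450 enzymes are haem proteins that insert 1 atom of oxygen into a substrate, with electrons passed on by a reductase. Plants hold very many of them, named by sequence similarity into families (the number) and subfamilies (the letter). They act in the synthesis and breakdown of hormones, sterols, lignin, pollen wall and cuticle polymers, and of defence compounds such as glucosinolates. Family 71 is a large plant family that has grown by tandem duplication, and many of its characterized members act in specialized metabolism, while many CYP71B enzymes have no assigned substrate.

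Facts of the whole series bear on every value below. *ask1* replicates 1 and 3 were the closest pair of arrays (Pearson r across 22746 probe sets 0.996, with 24 probe sets at least 2-fold apart), while *ask1* replicate 2 had 510 and 543 such probe sets against *ask1* replicates 1 and 3, and 411 and 360 against L*er* replicates 1 and 2. Probe sets are not independent replicates. The probe set of *ASK1* carries no name here, so the mutated gene was not checked. The paper itself counts *ASK1* among its down-regulated genes in *ask1*, with further L*er* arrays that are not analysed here. None of the 7 listed floral organ identity genes and 2 of the 12 listed tapetum genes were measured by name. The tapetum marker *A9* had log2 signals of 8.98, 8.62 and 9.38 in the *ask1* arrays, against 11.46 and 8.31 in the L*er* ones. The tapetum factor *AMS* had 4.80, 4.39 and 4.74 in *ask1* against 5.96 and 4.61 in L*er*, so both stood highest in L*er* replicate 1, and their part in the P450 results was not tested. The listed mature pollen and seed storage genes had no named probe set. Of the 3 genes listed as root markers *CO2* was measured, with 10.65, 10.70 and 10.67 in the *ask1* arrays, against 11.01 and 11.04 in the L*er* ones. These signals are high, so *CO2* does not serve as a gene absent from buds. Its genotypes did not overlap, with a log2 ratio of -0.36 (adjusted p = 0.446 from limma).

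Most P450 genes measured here gave low signals in buds. The mean log2 signal lay under 5 in both genotypes in 14 of the 23 genes (60.9%), beside 22.9% of all 22589 rows compared (genes and probe sets without a single gene name). Near that level background makes up much of a signal and ratios are understated. The arrays' values of these 14 genes ran from 3.54 to 5.32. A further 4 genes had means between 5 and 7 or spanned 5 (*CYP71B35*, *CYP71B38*, *CYP78A9* and *CYP84A4*), with values from 4.94 to 6.23. The remaining 5 genes, *CYP71B6*, *CYP71B22*, *CYP71B26*, *CYP71B28* and *CYP71B34*, had means of at least 7 in both genotypes, with values from 6.86 to 8.50. Signals of different probe sets also depend on their probes, so these bands do not rank the genes by RNA amount.

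**Figure D1:**
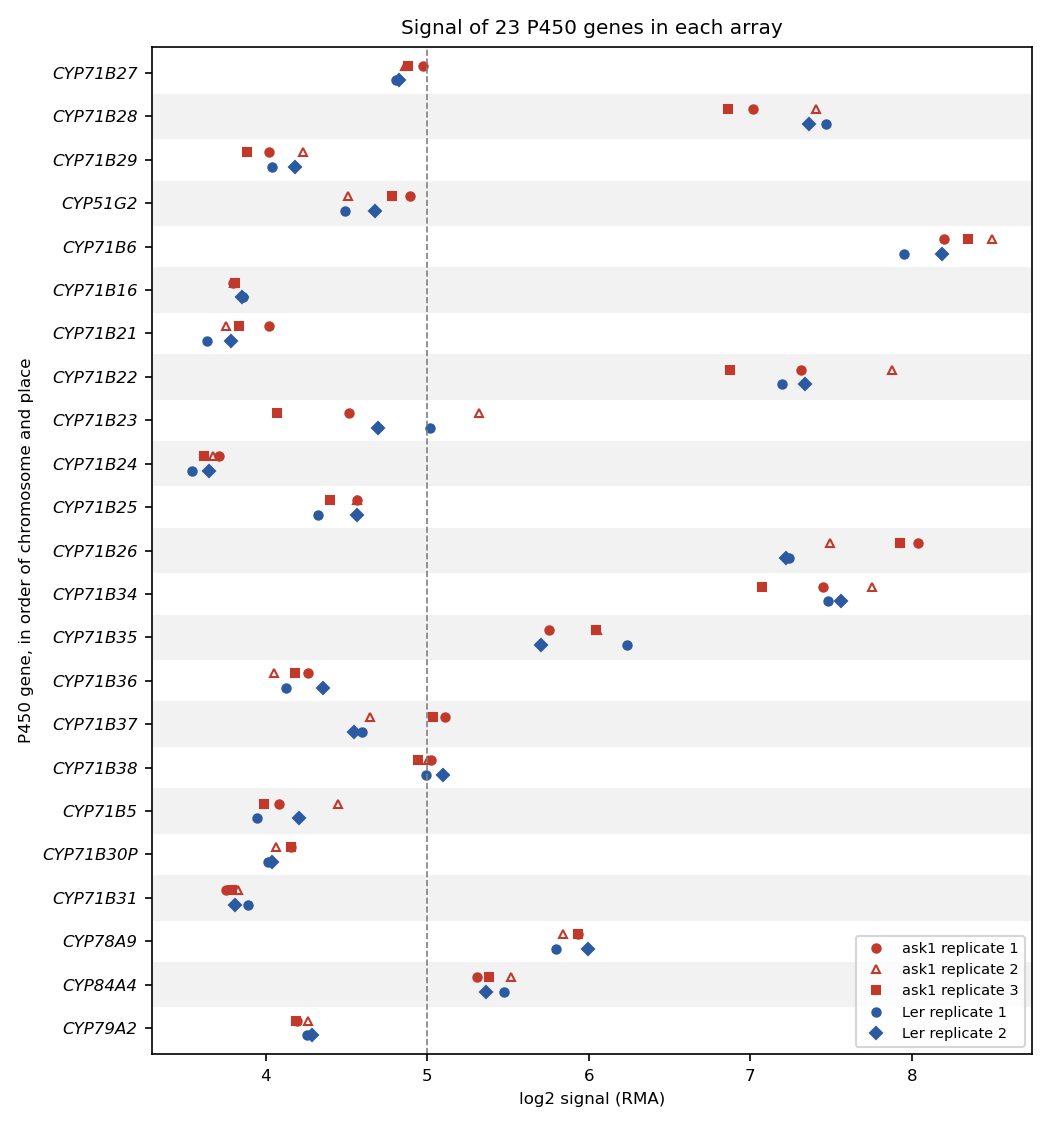
Log2 signal (RMA) of each of the 23 P450 genes in each array, with *ask1* arrays (red, 3 arrays) drawn above L*er* arrays (blue, 2 arrays) and a dashed line at 5. 5 genes lie near 7 to 8.5, and 14 have means under 5 in both genotypes.

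Between the genotypes, the P450 genes lay close together. Log2 ratios (*ask1* minus L*er*) had a median of 0.0075 over the 23 genes, beside -0.0084 over all rows, with 12 ratios above 0 and 11 below. The ratios ran from -0.32 in *CYP71B28* to 0.59 in *CYP71B26*, so no gene differed 2-fold between means. By limma with Benjamini-Hochberg adjustment over all 22589 rows, 0 of the 23 genes were called at an adjusted p of 0.05, beside 0.00443% of all rows called higher and 0.00885% called lower (0.0133% in all). The study's methods asked for a 2-fold change together with an unadjusted p under 0.05, which 0 genes met, beside 0.46% of all rows in the higher and 0.128% in the lower direction (0.589% in all). At an unadjusted limma p under 0.05 alone, 1 gene was higher (3.98% of all rows) and 0 were lower (2.97% of all rows). By the methods' t-test these counts were 0 and 1, for which shares of all rows were not counted.

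The intervals bound the ratios of the array signals, and they take the *ask1* arrays as independent of each other. In 21 of the 23 genes (91.3%) both ends of the ratio's 95% interval were less than 2-fold from no difference, beside 93.9% of all rows. The exceptions were *CYP71B23*, whose interval ran from -1.09 to 0.65, and *CYP71B26*, whose interval ran from 0.16 to 1.02. The distance from the ratio to either end of its interval was 0.21 to 0.87 on the log2 scale, with a median of 0.30 beside 0.30 for all rows. In the 14 genes with low signals, a narrow interval covers the spread of the arrays and says little about RNA near background.

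**Figure D2:**
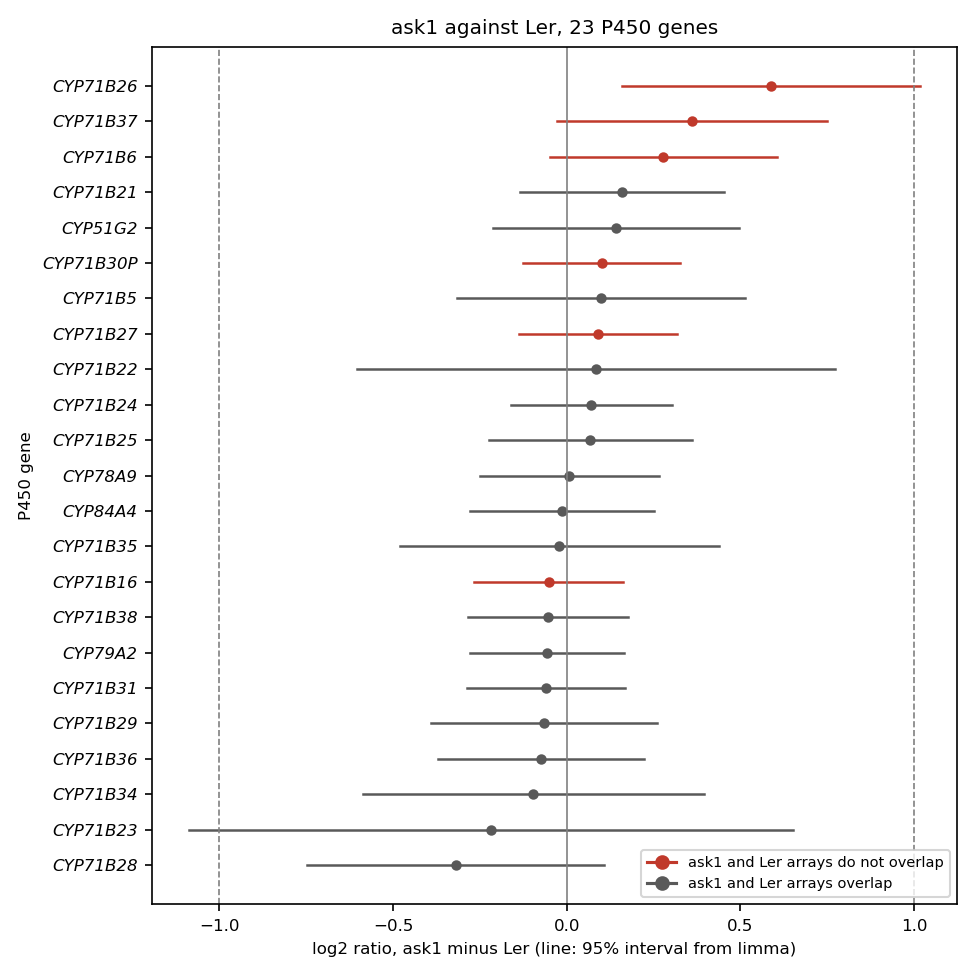
Log2 ratio of *ask1* minus L*er* for each of the 23 P450 genes, with the 95% interval from limma, a solid line at no difference and dashed lines at 2-fold. Red marks the 6 genes whose *ask1* and L*er* arrays do not overlap, and the intervals of *CYP71B23* and *CYP71B26* alone reach past a dashed line.

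Every *ask1* array lay above both L*er* arrays in 5 genes, beside 10.2% of all rows, and below both in 1 gene, beside 10.7%. The 5 were *CYP71B26*, *CYP71B37*, *CYP71B6*, *CYP71B30P* and *CYP71B27*, and the 1 was *CYP71B16*. In 3 of these 6 genes the distance was small: *CYP71B30P* and *CYP71B27* had log2 ratios of 0.10 and 0.09, and *CYP71B16* of -0.05, all at low signals. *CYP71B16* had 3.80, 3.81 and 3.81 in the *ask1* arrays, against 3.86 and 3.85 in the L*er* ones. Its arrays of a genotype differed by less than 0.01, so the methods' t-test gave it an unadjusted p of 0.0011, where limma, which borrows spread from all rows, gave 0.574.

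*CYP71B26* had the highest ratio and is the gene with an unadjusted p under 0.05. It encodes a CYP71B enzyme (AT3G26290) for which no substrate is named in the sources used here. Its log2 signal was 8.04, 7.49 and 7.93 in the *ask1* arrays, against 7.24 and 7.22 in the L*er* ones. All *ask1* arrays were above both L*er* arrays, and *ask1* replicate 2 lay nearer to the L*er* arrays than to the other *ask1* arrays. The *ask1* mean was 7.82 ± 0.29 (SD, n = 3), against an L*er* mean of 7.23 ± 0.01 (SD, n = 2). The log2 ratio was thus 0.59 ± 0.18 (SE), with an unadjusted p of 0.0153 and an adjusted p of 0.538 from limma. Without *ask1* replicate 2 the log2 ratio was 0.75 and the limma adjusted p was 0.0386. This was the one adjusted call of a P450 gene in any setting. That setting keeps the closest pair of arrays. The unadjusted limma p of *CYP71B26* there was 0.000517. Benjamini-Hochberg adjustment over 22589 rows brings such a p to 0.0386 only where many rows have low p-values too. Without *ask1* replicate 2 many rows were thus called, beside 3 in the main fit, though their exact number was not counted. The call is therefore not read as particular to *CYP71B26*. When L*er* replicate 1 was left out the ratio was 0.60 and the unadjusted limma p was 0.0578. When L*er* replicate 2 was left out they were 0.58 and 0.0630.

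*CYP71B37* (AT3G26330) had the second highest ratio, at a signal near background. It measured 5.11, 4.64 and 5.03 in the *ask1* arrays, against 4.59 and 4.54 in the L*er* ones. *ask1* replicate 2 again stood nearest the L*er* arrays, just above the higher of them. The log2 ratio was 0.36 ± 0.16 (SE, adjusted p = 0.748 from limma). Without *ask1* replicate 2 it was 0.50, with an adjusted p of 0.109 from limma.

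*CYP71B6* (AT2G24180) takes part in the conversion of indole-3-acetonitrile to indole-3-carbaldehyde, a branch of indole defence metabolism. Its log2 signals were 8.20, 8.50 and 8.35 in the *ask1* arrays, against 7.95 and 8.19 in the L*er* ones. The genotypes did not overlap, but the lowest *ask1* array and the higher L*er* array differed by less than the L*er* arrays did between themselves. Here *ask1* replicate 2 was the highest array, unlike in *CYP71B26* and *CYP71B37*. The log2 ratio was 0.28 ± 0.13 (SE, adjusted p = 0.780 from limma), and leaving out L*er* replicate 1 or 2 gave 0.16 or 0.40.

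*CYP71B28* (AT1G13090) had the lowest ratio, with overlapping genotypes. It measured 7.02, 7.41 and 6.86 in the *ask1* arrays, against 7.47 and 7.36 in the L*er* ones. *ask1* replicates 1 and 3 were below both L*er* arrays, and *ask1* replicate 2 was between them. The log2 ratio was -0.32 ± 0.17 (SE, adjusted p = 0.815 from limma). It was -0.48 without *ask1* replicate 2, with an unadjusted p of 0.00715 and an adjusted p of 0.153 from limma.

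In 3 further genes, *CYP71B22*, *CYP71B23* and *CYP71B34*, the *ask1* arrays lay on both sides of the L*er* arrays. *CYP71B22* had 7.32, 7.87 and 6.87 in the *ask1* arrays, against 7.20 and 7.34 in the L*er* ones. Its *ask1* arrays spanned 1.00, around a log2 ratio of 0.08 ± 0.28 (SE, adjusted p = 0.993 from limma). *CYP71B23*, the next annotated gene, had 4.52, 5.32 and 4.07 in the *ask1* arrays, against 5.01 and 4.69 in the L*er* ones, the widest range within *ask1* of all 23 genes at 1.25. *CYP71B34* had 7.45, 7.75 and 7.07 in the *ask1* arrays, against 7.48 and 7.56 in the L*er* ones. In all 3 genes *ask1* replicate 2 was the highest and *ask1* replicate 3 the lowest of the 5 arrays, so the spread among *ask1* arrays exceeded the difference between the genotypes. Their ratios took the other sign when *ask1* replicate 2 or 3 was left out: *CYP71B22* had -0.18 without *ask1* replicate 2, and *CYP71B23* and *CYP71B34* had 0.07 and 0.08 without *ask1* replicate 3.

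**Figure D3:**
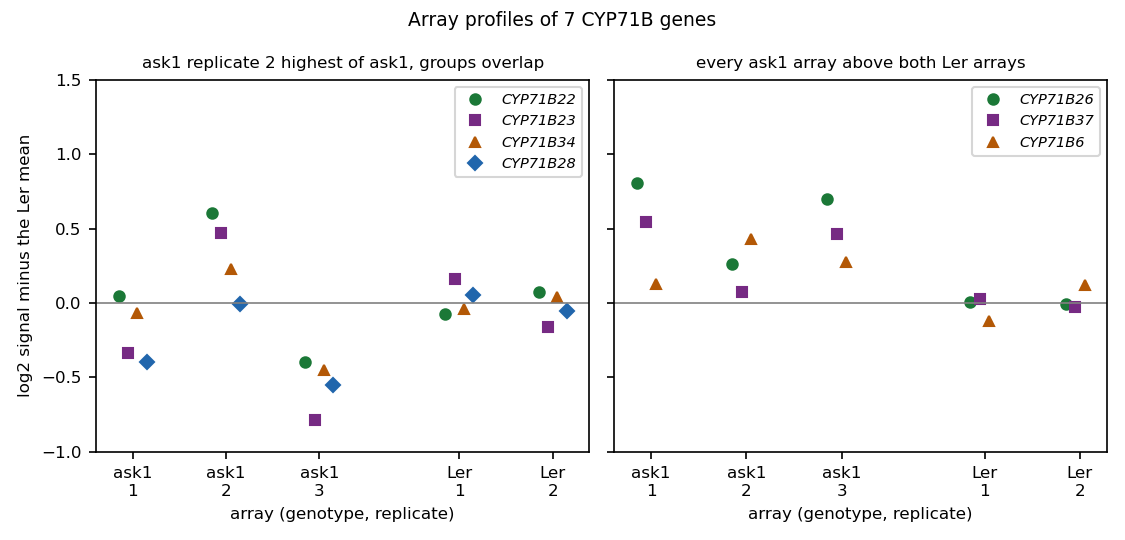
Log2 signal of 7 CYP71B genes in each array, as the difference from that gene's mean of the L*er* arrays, for the 3 *ask1* and 2 L*er* arrays. On the left *ask1* replicate 2 is the highest of the *ask1* arrays and the genotypes overlap; on the right every *ask1* array lies above both L*er* arrays, by least in *ask1* replicate 2 for *CYP71B26* and *CYP71B37*.

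How far *ask1* replicate 2 stood from the other *ask1* arrays was then compared over all members. Its signal differed from the mean of *ask1* replicates 1 and 3 by more than 0.4 on the log2 scale in 7 of the 23 genes (30.4%), beside 12.6% of all rows, a limit set after the values were seen. It was higher in *CYP71B23* (by 1.03), *CYP71B22* (0.78), *CYP71B34* (0.49), *CYP71B28* (0.47) and *CYP71B5* (0.41). It was lower in *CYP71B26*, by -0.49, and in *CYP71B37*, by -0.43. Of these 7 genes, 5 lie in a single group of 11 neighbours on chromosome 3, described below, so the 7 are not spread evenly over the members. Over the 23 genes, the median absolute difference from *ask1* replicate 2 was 0.07 to L*er* replicate 1, against 0.21 and 0.14 to *ask1* replicates 1 and 3, while *ask1* replicates 1 and 3 differed from each other by 0.09. Nearness to a L*er* array was not particular to *ask1* replicate 2, since *ask1* replicate 1 differed by 0.09 from L*er* replicate 2, and *ask1* replicate 2 by 0.10 from the same array. The range among *ask1* arrays was wider than the ratio between the genotypes in 20 of the 23 genes, beside 80.6% of all rows.

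Many of the genes lie near each other in the genome, which the choice of members did not use. In RefSeq's order of genes (TAIR10.1), 17 of the 23 fall in 3 groups of neighbours. Members were joined into a group where their places in that order differed by at most 12, so other genes can lie between them. The largest group is on chromosome 3, from *CYP71B16* (AT3G26150) to *CYP71B37* (AT3G26330), where 18 of 25 annotated genes have a P450 symbol and 11 of the 18 were measured. A second group on chromosome 1 holds *CYP71B27*, *CYP71B28* and *CYP71B29*, and another on chromosome 3 holds *CYP71B5*, *CYP71B30P* and *CYP71B31*. Tandem copies can be alike in sequence. All 23 probe sets lack the suffix by which the array's maker marks probes shared between transcripts, and probe sequences were not analysed here.

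Within the group of 11 neighbours, signals and ratios differed from gene to gene. *CYP71B22*, *CYP71B26* and *CYP71B34* had means above 7, *CYP71B35* had means near 6, and the other 7 had means under 5 in both genotypes. The ratios had a median of 0.07 and ran from -0.22 in *CYP71B23* to 0.59 in *CYP71B26*, with 6 above 0 and 5 below. The neighbours of *CYP71B26* with a value, *CYP71B25* and *CYP71B34*, had ratios of 0.07 and -0.10. *CYP71B35* was highest in L*er* replicate 1 (6.23) and lowest in L*er* replicate 2 (5.70), with the *ask1* arrays at 5.75, 6.05 and 6.04 between them. This was the widest gap between the L*er* arrays among the 23 genes. *A9* and *AMS* were highest in L*er* replicate 1 too, but most of the 23 genes were lower in it than in L*er* replicate 2. The other 5 of the 11, *CYP71B21*, *CYP71B24*, *CYP71B25*, *CYP71B36* and *CYP71B16*, had ratios from -0.07 to 0.16 at signals from 3.54 to 4.57. The 4 measured genes of other families within 5 places on either side had ratios from -0.19 to 0.10, and 0 had an unadjusted p under 0.05.

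**Figure D4:**
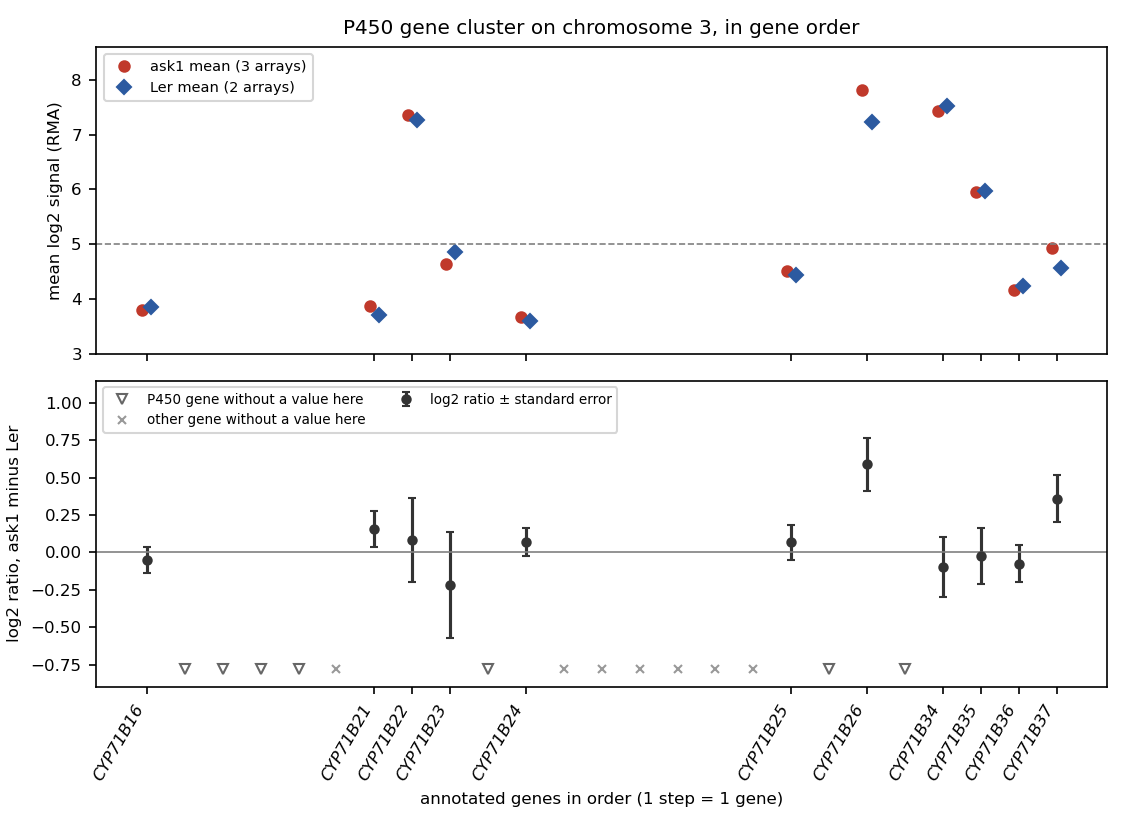
The P450 gene group on chromosome 3 in annotated gene order, with the mean log2 signal of *ask1* (red) and L*er* (blue) above and the log2 ratio with its standard error from limma below. Triangles and crosses mark P450 and other genes without a value here; *CYP71B26* has the highest ratio, 0.59, between neighbours at 0.07 and -0.10.

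In the 2 smaller groups the signals were mostly low. On chromosome 1, *CYP71B28* had a signal above 5 while *CYP71B27*, which RefSeq lists as a transcribed pseudogene, and *CYP71B29* did not, with ratios of 0.09 and -0.06. In the second group on chromosome 3 all 3 genes lay under 5, with ratios from -0.06 to 0.10. One of them, *CYP71B31*, encodes an enzyme that oxidizes linalool in Arabidopsis flowers. It had 3.75, 3.83 and 3.79 in the *ask1* arrays, against 3.89 and 3.81 in the L*er* ones, values near background in every array, and a log2 ratio of -0.06 (adjusted p = 0.965 from limma). *CYP71B30P* carries the suffix P that marks pseudogenes in this nomenclature, while RefSeq lists it as protein coding. *CYP71B38*, which has no other member beside it, had 5.02, 5.01 and 4.94 in the *ask1* arrays, against 4.99 and 5.09 in the L*er* ones, a log2 ratio of -0.05.

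The 4 genes outside family 71 showed ratios between -0.06 and 0.14, and their genotypes overlapped. *CYP78A9*, of a subfamily that promotes growth of floral organs, fruits and seeds, measured 5.93, 5.84 and 5.94 in the *ask1* arrays, against 5.80 and 5.99 in the L*er* ones. The *ask1* arrays fell between the L*er* arrays, with a log2 ratio of 0.0075 and a 95% interval from -0.25 to 0.27. *CYP84A4*, which acts in the synthesis of arabidopyrones, measured 5.31, 5.52 and 5.38 in the *ask1* arrays, against 5.47 and 5.36 in the L*er* ones, and its interval ran from -0.28 to 0.25. Both intervals leave out a 2-fold difference, at signals a little above 5. *CYP79A2*, which converts phenylalanine to its oxime on the way to benzylglucosinolate, measured 4.19, 4.26 and 4.19 in the *ask1* arrays, against 4.25 and 4.29 in the L*er* ones, a log2 ratio of -0.06. *CYP51G2*, listed as a transcribed pseudogene and related to the sterol 14-demethylase gene *CYP51G1*, measured 4.89, 4.51 and 4.78 in the *ask1* arrays, against 4.49 and 4.68 in the L*er* ones, a log2 ratio of 0.14. Both have low signals, so the arrays say little about their RNA.

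Genes that act beside P450 enzymes were read from lists of 115 pathway genes, of which 9 were measured by name. None of the 2 P450 reductase genes and none of 21 P450 genes listed under other names, such as *TT7* and *DWF4*, were among them. At an adjusted p of 0.05 limma called 0 of the 9. At an unadjusted p under 0.05 it put *UGT74B1*, *TPS11* and *DFR* higher and *AOP3* lower, or 3 and 1 of the 9, beside 3.98% and 2.97% of all rows. The lists were chosen with earlier results of these data known, so these counts do not measure an excess among genes that act beside P450 enzymes. Among glucosinolate genes, the glucosyltransferase gene *UGT74B1* had a log2 ratio of 0.63, *BCAT4*, of methionine chain elongation, 0.73, and *AOP3*, of side chain modification, -0.62. The sesquiterpene synthase gene *TPS11* measured 9.28, 8.85 and 9.42 in the *ask1* arrays, against 8.21 and 8.55 in the L*er* ones, and *DFR* of anthocyanin synthesis measured 9.88, 6.73 and 10.34, against 5.83 and 5.99, a log2 ratio of 3.07 ± 1.04 (SE, adjusted p = 0.621 from limma) with *ask1* replicate 2 nearest the L*er* arrays. The others, *SHT*, *HCT*, *LYC* and *JMT*, had ratios of 0.06, 0.17, -0.04 and 1.18, and these and *BCAT4* were not under that p. Of UDP-glycosyltransferases, another large enzyme family of specialized metabolism, 47 genes were measured, with a median log2 ratio of 0.03. At an unadjusted p under 0.05, 7 of the 47 were higher and 1 was lower, where 1 of the 23 P450 genes was higher and 0 were lower, beside 3.98% and 2.97% of all rows. The difference between the families was not tested.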

How the data were processed

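The deposited values are log2 signals that the authors made from ATH1 array files with RMA, which corrects the background, brings arrays to a common distribution and summarises each probe set. RMA's version is not given in the sources used here. GEO's platform annotation names 1 gene for 13513 of 22746 probe sets, several for 503 and none for 8730. The brightest single-gene probe set stood for a gene. Other probe sets were kept as rows, 22589 in all. *ask1* (n = 3) and L*er* (n = 2) were set against each other by lmFit and eBayes of limma 3.58.1 (R 4.3.3), 2-sided, and p-values were adjusted over all rows after Benjamini-Hochberg. The number of arrays limits the precision. Further L*er* arrays of the study were not analysed here. Members and lists were chosen with earlier results of these data known. The naming rule (members with a mean signal of at least 5 in either genotype or with a listed role) gave 11 members. The other 12 complete the family, and *CYP71B23* and *CYP71B37* were dwelt on after seeing their values. As alternatives, each array was left out, *ask1* replicates 1 and 3 were averaged, a replicate block, array weights, limma-trend or the methods' t-test was used, arrays were centred or quantile normalized, dim rows were dropped, and probe sets were chosen by other rules. RefSeq (TAIR10.1) gave names and gene order. No promoter, protein or probe sequence was analysed here.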

Additional observations from a re-analysis of the deposited data

How the results depend on the processing

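The adjusted limma count of 0 P450 genes was 0 in every alternative except without *ask1* replicate 2 (leave-one-out range 0 to 1), and both criteria of the methods were met by 0 genes throughout. The median log2 ratio stayed between -0.04 and 0.10. At an unadjusted p under 0.05, higher genes numbered 0 by the methods' t-test and 2 by limma-trend, array weights and quantile normalization, and 0 to 2 with arrays left out. Lower genes numbered 1 by the t-test and 1 with array weights, and 0 to 2 with arrays left out. Without *ask1* replicate 2 there were 2 in each direction, and without either L*er* array 0 were higher. Leaving out a L*er* array leaves 1, assumed to vary like the *ask1* arrays. Shares of all rows were counted for the main fit alone. The counts under alternatives therefore have no share beside them and are not read as results about the P450 genes. Of 23 ratios, 13 kept their sign in each of the 16 alternatives that held the gene, and 3 changed it only with an array left out. *CYP71B26*, *CYP71B37*, *CYP71B6* and *CYP71B28* were among the 13. The methods' t-test, limma-trend, the filter on dim rows and the other probe set choices keep each ratio, so they could not change a sign. The replicate block was counted apart from arrays left out. It repeats the ratios without *ask1* replicate 3, which has no L*er* array of the same number. Deviations of same-numbered arrays from their genotype's mean correlated at -0.26 and -0.011. The deviations of the 2 L*er* arrays mirror each other, so these values cannot decide whether arrays were paired. With a replicate block, as without *ask1* replicate 3, the ratios of *CYP71B23*, *CYP71B29*, *CYP71B34* and *CYP78A9* were 0.0653, 0.016, 0.0804 and -0.0092. Both settings gave 0 adjusted calls. *CYP78A9* was also -0.0038 with quantile normalization and -0.0089 with *ask1* replicates 1 and 3 averaged, a setting that gave 0.0051 for *CYP71B35* and 0.015 for *CYP84A4*. *CYP84A4* was 0.0043 with centred arrays, and *CYP71B22* was -0.13 with array weights. With an array left out, the ratios ran from -0.18 to 0.33 (*CYP71B22*), -0.56 to 0.0653 (*CYP71B23*), -0.0523 to 0.19 (*CYP71B25*), -0.16 to 0.016 (*CYP71B29*), -0.26 to 0.0804 (*CYP71B34*), -0.29 to 0.24 (*CYP71B35*), -0.19 to 0.0421 (*CYP71B36*), -0.0389 to 0.23 (*CYP71B5*), -0.0899 to 0.11 (*CYP78A9*) and -0.0722 to 0.0414 (*CYP84A4*). The cause was not tested. Each gene had 1 probe set with no shared-probe suffix, so the other choices of probe set changed no ratio, and the filter on dim rows kept 9 of the genes, so the other 14 have no value under it. Signals near background limit the 14 dim genes.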
